A study of Mus musculus with 4 samples.

Results

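Genes of G-protein-coupled receptors and of the G-protein signalling that follows them carried 561 sites of C-to-U editing in young mouse cortex, under 61 gene symbols, of 28412 sites under 4206 symbols in the whole list. The members were taken by symbol: those starting with Gpr, Adgr, Grm, Htr, Chrm, Adra, Adrb, Adcy, Gna, Gnb, Gng, Rgs or Pde, without Gnas and Rgs5. As the rule reads rows of the site list, every member has at least 1 site, which is no finding. Most of them were what the label says. By their symbols, 54 of the 61 encode receptors, G-protein subunits, adenylyl cyclases, phosphodiesterases or regulators of G-protein signalling (RGS), and these held 487 sites. The other 7 share only the first letters or work beside the receptors, and held 74 sites: Rgs7bp, Gprasp1, Gprasp2, Gprin3, Gpr89, Htra1 and Pde4dip.

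The sites come from scDART-seq, in which a fusion of the cytidine deaminase APOBEC1 with the m6A-binding YTH domain turns cytosines next to N6-methyladenosine (m6A) into uracil, read as C-to-T in sequencing. Dissociated cortical cells expressing APOBEC1-YTH were pooled with cells expressing APOBEC1-YTHmut, whose YTH domain is mutated, from replicates 1 and 2, and the pool was sequenced as 4 sublibraries. All mice were 6 to 8 weeks old when tamoxifen began, received 20 mg/kg every 24 h for 5 days, and gave tissue 7 days after the last dose. The sources used here do not give the promoter that drives the fusion, and no row of the list carries a sample, a genotype or a cell type. There are therefore no replicates, no test and no p-value below, and comparisons are between genes and sites of 1 list. Of 15 markers of neurons, glia and endothelium, 14 had a site, the exception being Gad1. Of all annotated protein-coding symbols, 17.6% had one. Mog, Cx3cr1 and Csf1r had 1 site each. These cell types are not particular to cortex, so the count does not check the brain region. Read depth and expression are not in the list, so more editing and more reads of a transcript cannot be told apart.

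A receptor of this superfamily binds a ligand outside the cell and activates a heterotrimer of alpha, beta and gamma subunits inside it. Alpha subunits then steer effectors such as adenylyl cyclases, which make cyclic AMP, and phospholipase C, while RGS proteins speed the return of the alpha subunit to its inactive state and phosphodiesterases break cyclic nucleotides down. In cortex this system carries slow signalling by glutamate, acetylcholine, monoamines and peptides, and adhesion receptors of the same superfamily take part in synapse formation.

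The 10 cytosines with the highest site count lay in receptors, alpha subunits, Adcy1, Pde1a and Rgs7bp. No RGS protein and no beta or gamma subunit was among them. The site count is the whole number deposited with each site, at least 3, and the sources used here do not say what it counts. The sequences below show 25 bases around the highest site of members that the results below turn on, 1 site per gene, from mm10 transcripts of the GENCODE M21 annotation. They are written 5′ to 3′ on the gene's strand. Capitals mark the 5 bases in which the edited C is the fourth and the A before it is the candidate m6A.
Adgrl1, chr8:83939954-83939978, plus strand: taaatatttCAACAaaatggaaaag
Adcy1, chr11:7172841-7172865, plus strand: tttggtgatAAACAaccttcttttt
Adgrf5, chr17:43455488-43455512, plus strand: tgtaaagacAGACTaaaagcaaagg
Rgs7bp, chr13:104949325-104949349, minus strand: caaatggacTAACTgacaagcctgg
Gnao1, chr8:93969211-93969235, plus strand: agaaaaaaaAAACTtgaaaaaagga
Gnai2, chr9:107614553-107614577, minus strand: aaataaggaAAACTgcaaatctaga
Gnaz, chr10:75015820-75015844, plus strand: ccggacctcTGACTaccggtggctt
Rgs4, chr1:169742276-169742300, minus strand: gagaaaagaAAACAgaagaggagag
Gnaq, chr19:16386056-16386080, plus strand: aacacaaaaAGACAaaaaagaagaa
Gnb1, chr4:155557550-155557574, plus strand: tactaacgtGGACAcccacacctcc
Adgrl4, chr3:151497876-151497900, plus strand: tgaaaacgtGAACGggggcttcagc
Adgrb1, chr15:74587156-74587180, plus strand: agatgccccAAACCcgcctcatcca
With coding sequence (CDS) taken before UTR where transcripts differ, the sites of Adgrl4 and Adgrb1 lay in the CDS and the others in a 3′ UTR. Their counts were 167 for Adgrl1, 162 for Adcy1, 145 for Adgrf5, 92 for Rgs7bp, 88 for Gnao1 and 79 for Gnai2, while Grm5 reached 89 and Pde1a, whose sequence is shown further on, 86. Gnaz followed with 67, Rgs4 with 65, Gnaq with 54, Gnb1 with 42, Adgrl4 with 40 and Adgrb1 with 36. A count of 100 was reached by 3 of 561 member sites, against 562 of 27851 sites of the rest of the list.

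Sites were concentrated in few members, as they were in few genes of the rest of the list. The 5 members with the most sites held 224 sites, 39.9% of the 561, and the first 10 held 338, or 60.2%. The median member had 4 sites and 12 members had 1, while the 4145 other symbols had a median of 2 and 1539 of them had 1. Members with 10 or more sites made up 26.2% (16 genes), against 16.7% of the other symbols. These members held 72.9% of member sites, and such other symbols held 66.9% of the sites of the rest. Per kb of exon, the median was 0.617 sites in members and 0.428 in the 3798 other protein-coding genes. The median site count was 5 at member sites and 4 at the sites of the rest. A count of 3, the lowest listed, was carried by 38.3% of member sites and 41.1% of the rest, and 8 members had no site above it: Adgrf4, Chrm3, Gnai3, Gpr39, Gpr89, Gpr162, Grm7 and Rgs8.

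**Figure D1:**
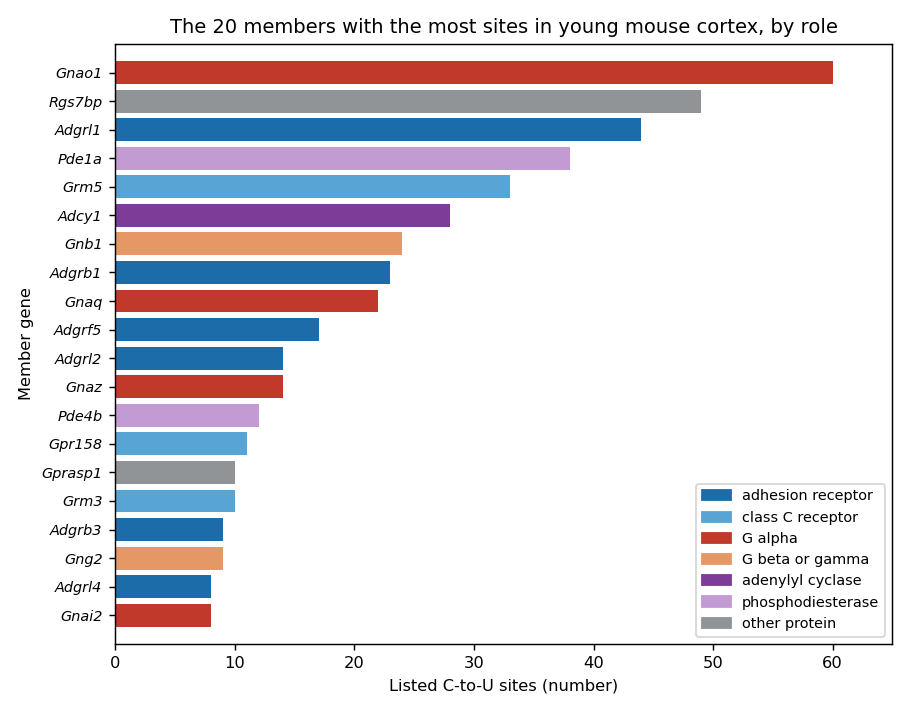
Number of listed C-to-U sites (horizontal axis) of the 20 member genes with the most sites, coloured by role. Gnao1 has 60, Rgs7bp 49, Adgrl1 44, Pde1a 38 and Grm5 33, and the last genes shown, Adgrl4 and Gnai2, have 8.

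Families differed in how many of their genes were listed at all. Of 244 protein-coding symbols that the annotation holds under the rule, 61 had a site, or 25.0%, against a background of 17.6% of all annotated protein-coding symbols (3859 of 21924). Metabotropic glutamate receptors had a site in 4 of 8 genes, alpha subunits in 9 of 15 and adhesion receptors in 10 of 27. Muscarinic receptors had 2 of 5 and numbered RGS genes 7 of 20. Gamma subunits had 1 of 12. Among the 73 Gpr symbols followed by a digit, mostly orphan receptors, 8 had a site, or 11%. None of the 9 adrenergic receptor genes and none of the 14 serotonin receptor genes, which include the Htr3 channels, had a site in the list analysed. For a gene at 0, low expression, few reads, little editing and a filter cannot be told apart.

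Adhesion receptors, which join a long extracellular part to the membrane-spanning receptor, held 128 sites in 10 genes, the most of any role, with a median of 8.5 per gene. Per kb of exon their median was 0.801, and among the roles only class C receptors, with 1.32, and beta or gamma subunits, with 1.47, were higher. Adgrl1 (latrophilin 1, the receptor of alpha-latrotoxin) had 44 sites on chromosome 8 between 83900105 and 83941954, with counts from 3 to 167. Adgrl2 and Adgrl3, the other neuronal latrophilins, had 14 and 6, and no count of theirs was above 12. Adgrb1, Adgrb2 and Adgrb3, brain receptors of the same class that act at synapses, had 23, 4 and 9 sites. Adgrf5, known from endothelial and lung epithelial cells, had 17 sites, and Adgrl4, known from endothelium, had 8. The adhesion genes thus ran from 44 sites to 1 site in Adgrf4.

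Sites of Adgrl1 fell into separate groups along the transcript. Distances here count nucleotides after the stop codon along the longest coding transcript, negative before it. In the CDS, 21 sites lay between -3862 and -3262, with counts from 3 to 60 and a median of 4. In the 3′ UTR, 18 sites lay between 611 and 1109, with counts from 3 to 167. The remaining 5 were 2 isolated CDS sites and 3 sites from 2755 nt on, all with counts of 3 to 5. All 21 sites of the CDS group lie in exon 5 of 23, of 801 nt, at chr8:83929464-83930264. Of the 44 sites, 6 also lay in exons of annotated genes on the opposite strand, Gm44330 with 5 and Gm10644 with 1, and none of those 6 had a count above 17.

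Long internal exons held most CDS sites of the receptors. In Adgrb1, 16 of 23 sites lay in exon 28 of 31, of 701 nt, with counts up to 36. In Adgrb3, 8 of 9 sites lay in exon 2 of 31, of 772 nt, led by a count of 25. Grm3 had its 3 CDS sites in exon 4 of 6, of 1067 nt. Over all members, 54 of 96 CDS sites in internal exons, 56.2% (95% interval 45.7 to 66.4), lay in exons of 400 nt or more, against 1961 of 6452, or 30.4%, in other protein-coding genes. This threshold was chosen after the exons above were seen. Among RAC sites, where R is A or G and the edited C follows the A, the share was 53.2%, while 23.8% of all RAC cytosines in the internal coding exons of the same genes lay in such exons. In other protein-coding genes these shares were 29.4% and 20.9%. The member share rested on Adgrl1 and Adgrb1: without Adgrl1 it was 44.6%, and without both genes 29.6% (16 of 54). Long internal exons are known as places where m6A is more common, which is background here.

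Receptors of class C held 68 sites in 6 genes, 86.8% of them in the 3′ UTR. Grm5, the receptor that couples glutamate to Gq proteins at the postsynaptic side, had 33 sites on chromosome 7 with a median count of 13, against 5 over all members. Of these, 18 lay in its 3′ UTR from 615 to 821 nt after the stop codon, with counts from 3 to 89 and a median of 32.5. They held 80.8% of the summed site count of the gene. Grm3, which couples to Gi proteins and is found in astrocytes and neurons, had 10, with 7 in a 3′ UTR of 227 nt and the highest count at 32. Grm7, a presynaptic receptor, had 2 sites at a count of 3. Gpr158, a receptor that binds RGS7, had 11 sites, 9 of them in the 3′ UTR, with counts up to 19. The orphan receptor Gprc5b had 6, with counts up to 12.

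Class A receptors, the class of most transmitter and hormone receptors, held 22 sites in 8 member genes, with 1 to 5 per gene and 20 of the 22 in the 3′ UTR. Their median of 2.5 sites per gene and 0.456 per kb of exon stood near the 2 and 0.428 of other protein-coding genes. Gpr26, an orphan receptor of the brain, had 5 sites. Gpr37l1, an astrocyte receptor, had 4 sites with counts of 31, 5, 7 and 12. Of the muscarinic acetylcholine receptors, Chrm3 had 3 sites with a count of 3 and Chrm1 had 1 with a count of 4. Adcyap1r1, the class B receptor of the peptide PACAP, shares its first letters with the cyclases and had 5 sites, all in the 3′ UTR and with counts up to 12.

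**Figure D2:**
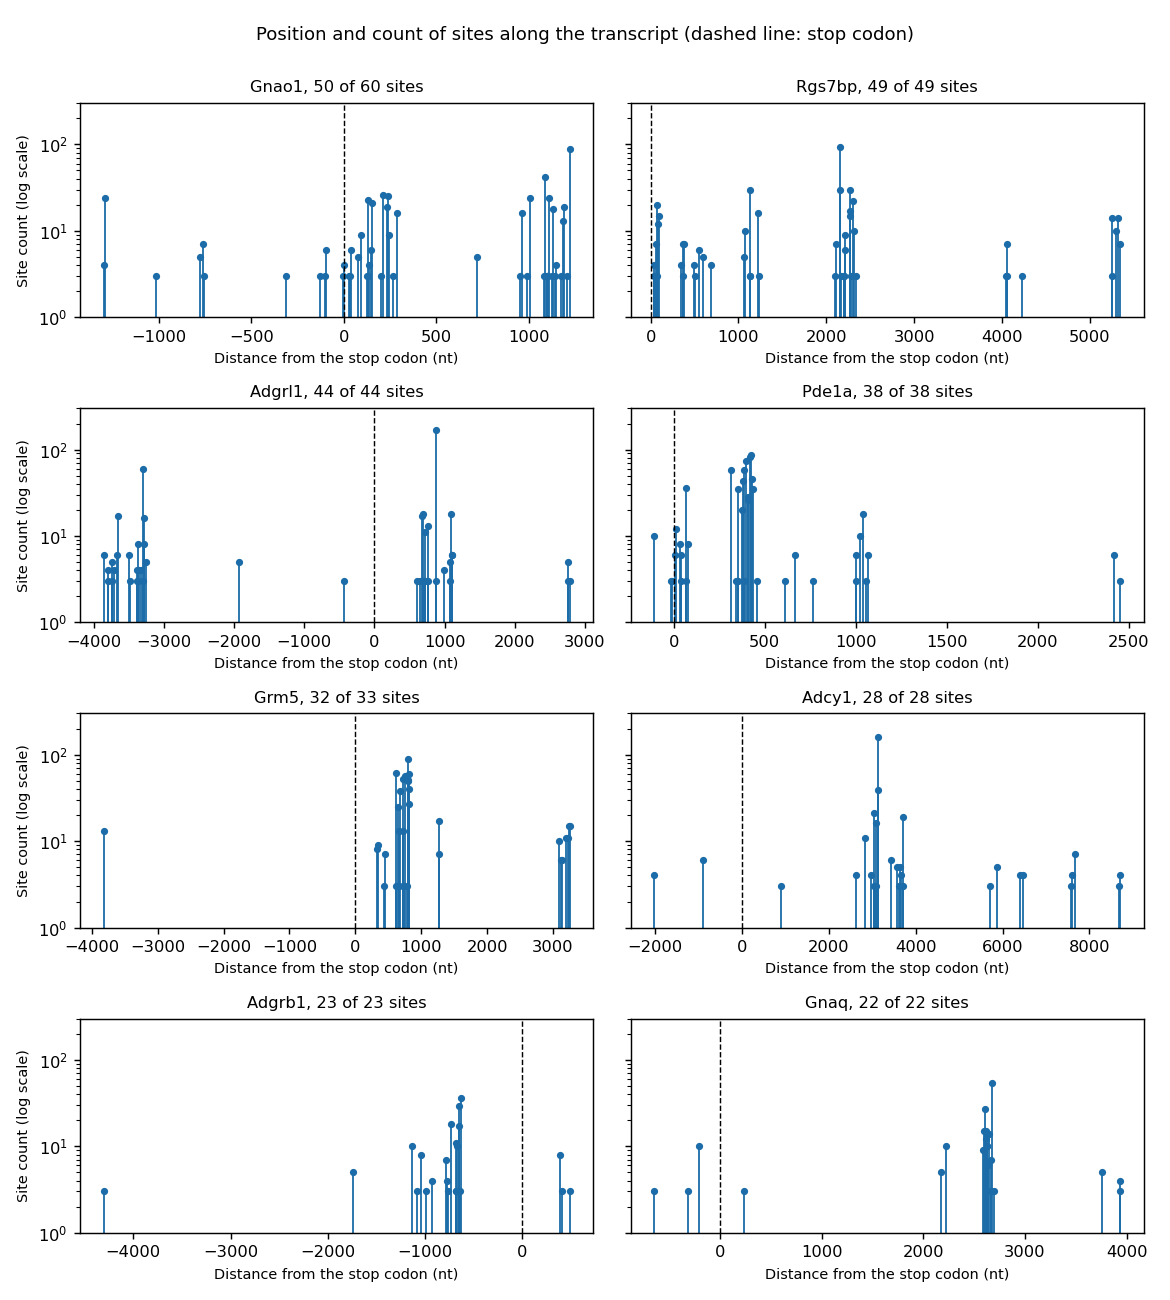
Site count (vertical axis, log scale) against the distance from the stop codon in nt (horizontal axis) for sites of 8 members. Transcripts are the longest coding ones, except for Gnao1, drawn on the coding transcript that holds most of its sites. Sites stand in narrow groups, after the stop codon in Grm5, Gnaq and Pde1a and before it in Adgrb1.

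Alpha subunits held 112 sites in 9 genes, but their spread was wide: Gnao1 had 60, Gnaq 22, Gnaz 14 and Gnai2 8, while Gna11, Gna12 and Gnai1 had 2 and Gnai3 and Gnal 1. Gnao1 encodes Go alpha, an abundant subunit in neurons, and led the whole set. Its sites were at the downstream end of the gene. The coding transcript that ends at 93969388 of chromosome 8 has a 3′ UTR of 1385 nt, which held 39 sites with counts from 3 to 88, or 28.2 per kb. The longest coding transcript ends upstream, at 93960690, and its 3′ UTR of 4438 nt held 4 sites with counts from 3 to 10, or 0.901 per kb. Another coding transcript ends at 93968956 and has 26 sites in a 3′ UTR of 1901 nt, which shares part of its sequence with the first. Which of these transcripts was expressed is not in the list. Gnao1 also had 5′ UTR sites at 93811104 and 93811114, with counts of 4 and 24.

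Gnaq, the subunit that activates phospholipase C, had 13 of its 22 sites in a group from 2592 to 2695 nt after the stop codon. Of these, 8 in a row stood in the context AAACA, spaced at most 10 nt apart, with counts from 6 to 27. Its close relative Gna11 had 2 sites, with counts of 27 and 3. Gnaz, an inhibitory subunit of neurons, had 11 of its 14 sites from 544 to 656 nt after the stop codon, with counts from 3 to 67. All 8 sites of Gnai2, an inhibitory subunit found in many cell types, lay from 496 to 611 nt after the stop codon, and a single site at 557 held a count of 79 while the others had 3 to 24. The inhibitory subunits thus had 60, 14, 8, 2 and 1 sites in Gnao1, Gnaz, Gnai2, Gnai1 and Gnai3. No window of 51 nt around a member site was found as an identical sequence in an annotated transcript of another gene (0 of 554 windows), the paralogous alpha subunits included. Near matches, introns and unannotated sequence were not searched.

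Among beta and gamma subunits, Gnb1 had 24 sites, Gnb2 3 and Gnb4 1, and Gng2 was the only listed gamma subunit with 9. Gnb1 had 22 sites in the 3′ UTR, of which 13 lay from 33 to 218 nt after the stop codon with counts up to 42. Sites of Gng2, all in the 3′ UTR, had counts from 3 to 18.

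Of the adenylyl cyclases, Adcy1 held 28 of 31 sites. Adcy1 is the cyclase stimulated by calcium and calmodulin. Its 3′ UTR of 8791 nt had 26 sites, and 16 of them lay from 2637 to 3704 nt after the stop codon, holding 86.0% of the gene's summed site count. The site at 3138 had a count of 162 and the next highest 39. Adcy5 had 2 sites with counts of 9 and 4, and Adcy9 had 1 with 9. The other 7 annotated cyclases had 0.

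Phosphodiesterases held 63 sites in 6 genes, with 58 in the 3′ UTR. Pde1a, a phosphodiesterase activated by calcium and calmodulin, had 38 sites on chromosome 2, of which 16 lay from 317 to 456 nt after the stop codon with counts from 3 to 86 and a median of 35. Pde4b, a cyclic AMP-specific enzyme, had all 12 sites from 320 to 490 nt after the stop codon, with counts from 3 to 31. The related Pde4d and Pde4a had 6 and 3 sites. Pde10a, known from striatal neurons, had 3 and Pde8a 1.

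RGS genes held 21 sites in 7 genes, with 1 to 7 each. Their median of 2 per gene and 0.399 per kb of exon compares with 4 and 0.617 over all members and with 2 and 0.428 in other protein-coding genes. Rgs4, a regulator of Gi and Gq signalling in neurons, led with 7 sites, all in the 3′ UTR and with counts from 3 to 65. Rgs6 and Rgs7 had 4 each, Rgs17 and Rgs20 2, and Rgs3 and Rgs8 1. Rgs7bp, which anchors complexes of RGS7-type proteins at the membrane and is no RGS protein itself, had 49 sites. All 49 lay in its 3′ UTR of 5587 nt on chromosome 13, from 42 to 5344 nt after the stop codon. The group of 16 sites from 2098 to 2336 nt held the highest count, 92, and 51.2% of the summed count.

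The remaining symbols were Gprasp1 and Gprasp2, which bind receptor tails and sort receptors, with 10 and 3 sites, and Gprin3, which interacts with G proteins, with 1. Of the 10 sites of Gprasp1, 5 lay in the CDS. Pde4dip, a Golgi and centrosome protein that binds phosphodiesterases, had 5 sites, Htra1, a secreted serine protease, 4, and Gpr89, a Golgi pH regulator, 2. The highest counts of these 3 genes were 6, 10 and 3.

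Sites of the members were more often in the 3′ UTR than those of other protein-coding genes. Where annotated transcripts differed and the 3′ UTR was taken first, 85.4% of member sites lay there (479 of 561, 95% interval 82.2 to 88.2), against 66.3% (65.7 to 66.9) of 25819 sites in other protein-coding genes. Taking CDS first gave 75.2% (71.4 to 78.7) in members and 62.1% (61.5 to 62.7) in the rest, and is the safer reading for adhesion receptors. Their 3′ UTR share was 76.6% under the first rule and 41.4% under the second. The annotation holds transcripts marked for nonsense-mediated decay, in which coding exons of Adgrl1 and Adgrb1 count as 3′ UTR, so that 44 of 44 Adgrl1 sites fall there under the first rule and 21 under the second. In Adgrb1 the numbers were 22 and 3. Under the second rule 53.9% of adhesion receptor sites lay in the CDS (44.9 to 62.8), against 20.9% over all members. Intervals are exact binomial ones. They cover counting only and are too narrow, since sites of a gene are not independent. With 1 site per gene, the one of highest count, the 3′ UTR share under the CDS-first rule was 75.4% in members and 54.6% in other protein-coding genes. Of all cytosines on the longest coding transcripts, 45.3% lay in the 3′ UTR in members and 42.6% in other protein-coding genes.

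**Figure D3:**
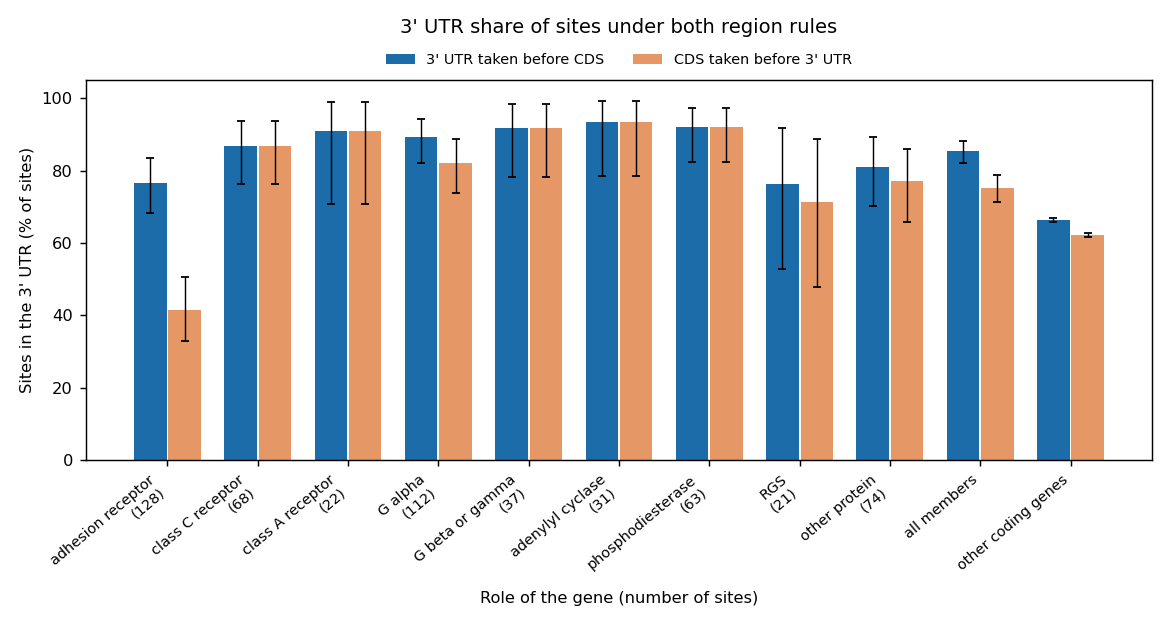
Share of sites in the 3′ UTR (vertical axis, %) by role, for all 561 member sites and for other protein-coding genes, with the 3′ UTR taken before the CDS (blue) or after it (orange). Bars are shares with exact binomial 95% intervals, and the single class B receptor is left out. Adhesion receptors have 76.6% under the blue rule and 41.4% under the orange one, while class C receptors have 86.8% under both.

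Within the 3′ UTR, the median distance of member sites was near that of other genes. On the longest coding transcripts, the median 3′ UTR site lay 628 nt after the stop codon in members (380 sites), against 678 nt in other protein-coding genes (15525 sites). With 1 site per gene these medians were 490 and 512 nt. The spread differed: quartiles over all these 3′ UTR sites were 341 and 2100 nt in members, against 259 and 1560 nt in the rest. With 1 site per gene the quartiles were 266 and 1070 nt, against 200 and 1160 nt. Over all sites, CDS sites included as negative distances, the medians were 446 nt in members and 224 nt in other protein-coding genes, and members had the smaller share of CDS sites. Within 400 nt of the stop codon, on either side, lay 25.96% of member sites (129 of 497, 22.2 to 30.1), against 30.4% (29.8 to 31.0) in the rest. On the coding transcript that holds most sites of each gene, which changed only Gnao1 and Rgs3, the member share was 28.3% and that of the rest 30.8%. With 1 site per gene the shares were 33.9% and 32.7%. Without the 5 members with the most sites, the member share was 29.1%. The last exon held 77.5% of member sites and 70.3% of the others.

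The sequence context of member sites was near that of the list. Of member sites, 79.3% lay in RAC, against 78.4% in other protein-coding genes. DRACH, a RAC that no C precedes and no G follows, held 57.6% (53.4 to 61.7) of member sites, against 55.3% of the others. RAC held every member site with a count above 3, 346 of 346, as it did all 15230 such sites of other protein-coding genes whose context could be read, and the filters behind the list are not known. At a count of 3, 99 of 215 member sites, 46.0%, lay in RAC, against 47.2% in other protein-coding genes. Of 8499 RAC cytosines on the longest coding transcripts of the members, 73.7% were DRACH, and of the 445 RAC sites 72.6%.

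AAACA was the commonest context. It held 75 member sites, 13.4%, against 10.7% of sites in other protein-coding genes. On the longest coding transcripts 64 of 531 AAACA cytosines of members were listed, 12.1%, against 7.50% in other protein-coding genes. Of these 64 sites, 25 were in Gnaq, Grm5 and Pde1a, and without these genes the member share was 8.32% (39 of 469). TAACG had 12.5% listed (6 of 48), AAACG 11% (9 of 82) and GAACG 9.52% (12 of 126). In other protein-coding genes these 3 contexts had 6.65%, 7.84% and 8.74% listed. GGACT, often given as the favoured m6A motif, had 1.94% (7 of 360), and GGACC 1.16% (4 of 344). Their shares in other protein-coding genes were 1.63% and 1.09%.

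Neighbouring sites were common in members and in other protein-coding genes. A neighbour within 10 nt was present at 52.6% of member sites and at 47.4% of sites in other protein-coding genes. There were 19 runs of 4 or more sites spaced at most 10 nt apart, in 11 genes, with 95 sites, or 16.9% of member sites. The share in such runs is not given here for the rest of the list. Pde1a had a run of 4 sites from 79836534 to 79836546 and one of 7 sites from 79836558 to 79836591. The windows below show parts of these runs, with listed cytosines in capitals. Their ends are not those of the runs, and the first window holds sites of both. The numbers listed per window therefore depend on where it was cut.
Pde1a, chr2:79836536-79836565, minus strand: aggaCaaCaagaagaaaaaCaaaCaaaCaa
Pde1a, chr2:79836565-79836592, minus strand: aCgcaaCaaCaCaattgtcaaCaagcaa
In the first window every cytosine was listed, 5 of 5, with counts from 26 to 86. In the second 5 of 8 were listed, with counts from 3 to 74. Several cytosines of such a run can be edited next to different adenines or to the same one, and the list does not tell which.

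A part of the high counts stood in A-rich stretches. Of the 67 RAC sites of members in the 3′ UTR with a count of 20 or more, 25 had at least 13 A among the 25 bases around them, or 37.3% (95% interval 25.8 to 50). Here the 3′ UTR was taken before the CDS, at all counts and in other genes too. With CDS first, the Adgrl1 site with a count of 60 and the Adgrb1 sites with 29 and 36 are CDS sites. The same holds for sites of both genes at lower counts. At counts of 4 to 19 the share was 15.8% and at a count of 3 it was 5.88%. Of all RAC cytosines in 3′ UTRs of the longest coding transcripts of members with such sites, 6.66% had as many A. Those 3′ UTRs do not hold the 8 Gnao1 sites with a count of 20 or more. In other protein-coding genes the shares were 25.9% at 20 or more, 22.4% at 4 to 19 and 18.9% at 3, over 7.22% of all RAC cytosines. The 25 sites came from 10 genes, with 7 in Pde1a and 6 in Grm5, while Rgs7bp had 0 of 6, Adcy1 0 of 3 and Gnb1 0 of 3. Without Pde1a and Grm5 the share was 27.9% (12 of 43), near that of the other protein-coding genes. Both thresholds were chosen after the sequences were seen.

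**Figure D4:**
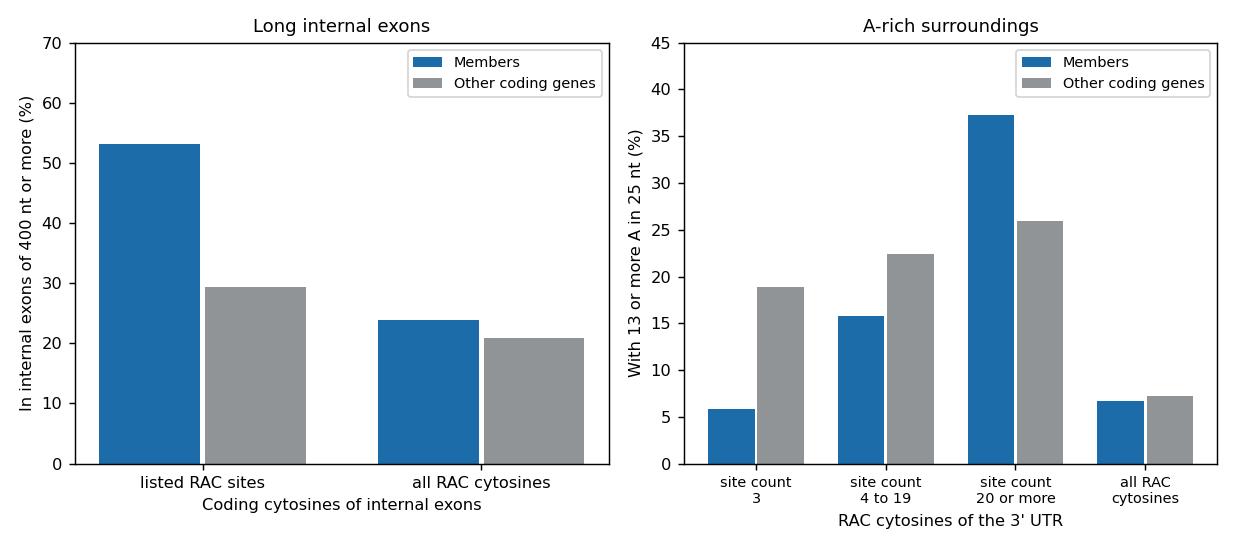
Left, share (vertical axis, %) of coding RAC cytosines of internal exons that lie in exons of 400 nt or more, for listed sites and for all such cytosines. Right, share of 3′ UTR RAC cytosines with 13 or more A in 25 nt, by site count, with the 3′ UTR taken before the CDS. The last bars there are for all RAC cytosines in 3′ UTRs of the longest coding transcripts. Blue bars are members and grey bars other protein-coding genes. Of listed sites, 53.2% against 29.4% lie in long internal exons. Of sites with a count of 20 or more, 37.3% against 25.9% are A-rich. Without Adgrl1 and Adgrb1, 29.6% of all member CDS sites in internal exons, RAC or not, lie in long ones. Without Pde1a and Grm5, 27.9% of member sites with a count of 20 or more are A-rich.

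Members differed in how many of their RAC cytosines were listed. On the longest coding transcripts, 22.3% of the RAC cytosines of Pde1a were listed (29 of 130), 20.0% of Rgs7bp (37 of 185) and 18.8% of Gnb1 (19 of 101). Adcy1, with the long 3′ UTR described above, had 8.79% (24 of 273). Gpr26 has as many RAC cytosines as Adcy1, 273, in a transcript of 11571 nt, and 5 were listed, or 1.83%. Pde4dip had 1.38% (4 of 289).

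**Figure D5:**
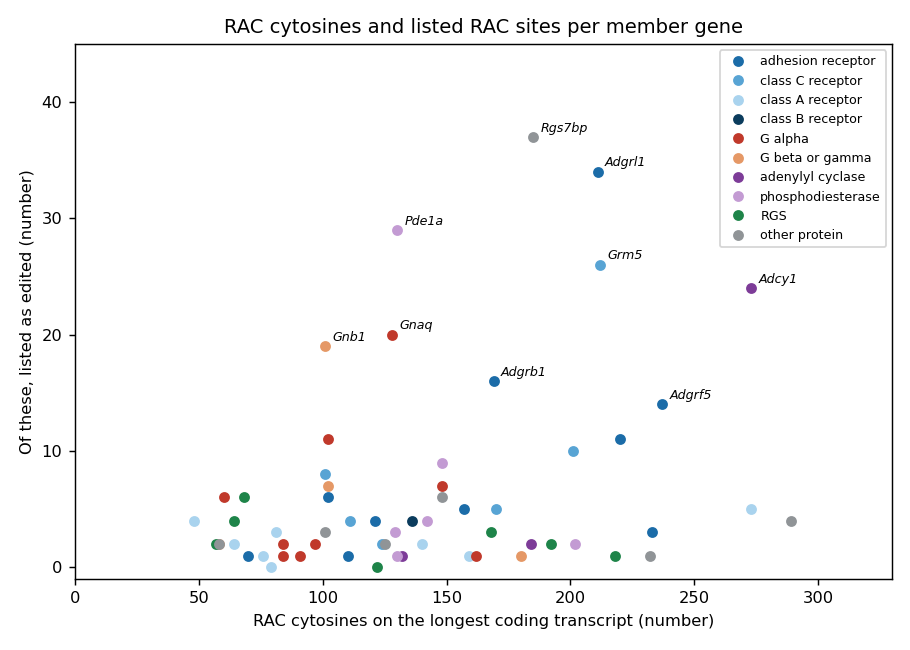
RAC cytosines on the longest coding transcript of each member (horizontal axis, number) and how many of them are listed (vertical axis, number), coloured by role. Rgs7bp, Adgrl1 and Pde1a have the most, 37, 34 and 29, and Gnao1 appears with 7 because its longest coding transcript holds 8 of its 60 sites.

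Other genes of the pathway, from a list of 62 annotated symbols outside the rule, had a site in 23 cases, or 37.1%, with a median of 4, against the background of 17.6% of all annotated protein-coding symbols. These symbols were chosen by hand with earlier results of these data known. Effectors of the pathway had a site in 11 of 13, receptors in 9 of 35, receptor kinases and arrestins in 3 of 7 and modulators of G proteins in 0 of 7. Gabbr2 and Gabbr1, the subunits of the GABA-B receptor, had 45 and 32 sites. Of the protein kinase A subunits, Prkar1b had 36, Prkacb 26 and Prkar1a 23.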

How the data were processed

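Cells of dissociated cortex were profiled in 4 sublibraries of 1 pool. STAR 2.7.5 and the build mm10 are named per the submitters' processing notes. Sites were found with the Bullseye pipeline, per the series text. The authors deposited 1 list with a position, strand, symbol and whole number per site, used as an unnormalized count. The sources used here do not say what it counts, which filters were applied, how deep the sublibraries were or how mutant cells entered the calls.

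All 561 member sites matched a GENCODE M21 gene by symbol and strand, and all had a C on their strand. Regions, distances and contexts were read from annotated transcripts with Python 3.11.15. Their reading along the longest coding transcripts was tested on simulated positions. That test did not cover the region rules for transcripts that differ. Intervals are Clopper-Pearson ones from scipy 1.17.1.

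Members and lists were chosen with earlier results of these data known. Named by rule were the 20 members with the most sites, the first of each family, those of the 10 highest site counts, the symbols of other proteins, and 5 genes of the wider pathway. Other genes were named after their values were seen. Alternatives changed regions, contexts, counts, merging and members. Sequences are from GENCODE M21 transcripts. Some genes and sequences are not reported here.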

Additional observations from a re-analysis of the deposited data

How the results depend on the processing

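Values are from 1 list without replicates, so limits are those of counting and of genes with many sites. Results counted as moved when a share left its 95% interval or when a number or median changed by more than 1.5 times, and the cause was not tested unless the construction shows it. The number of sites was 346 at a site count of 4 or more. The 3′ UTR share was 89.3% at a count of 4 or more, 78.7% with 1 site per gene, 75.2% with CDS before 3′ UTR and 76.5% on the longest coding transcript. The CDS share was 7.51% at a count of 4 or more, 20.9% with CDS first and 21.9% on the longest coding transcript. Near the stop codon, 33.9% of sites lay within 400 nt with 1 site per gene, and 12.3% lay within 200 nt. The DRACH share was 74.6% at a count of 4 or more, where only RAC sites remain, 70.5% with 1 site per gene, and 79.3% lay in RAC. The median site count was 12 with 1 site per gene, by construction. Among alternatives chosen after seeing the data, protein-coding transcripts alone gave a 3′ UTR share of 75.6% and a CDS share of 20.3%, and leaving out the 5 members with the most sites gave 79.2% in the 3′ UTR. Leaving out Adgrl1 gave 44.6% of internal CDS sites in long exons, and leaving out Adgrb1 as well 29.6%. Leaving out Gnaq, Grm5 and Pde1a gave 8.32% of AAACA cytosines listed. Leaving out symbols of other proteins, or Gnao1, moved none of the results for which it was run. No paired analysis was possible because no row of the list belongs to a group or replicate.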
